A study of Mus musculus with 11 samples.

Results

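Heat shock proteins and their DNAJ partners form the main protein-folding machinery of the cell, and their messenger RNAs were measured here in eosinophils sorted from mouse blood. The genes were chosen by symbol: protein-coding genes whose name begins with Hspa, Hspb, Hspd, Hspe, Hsph, Hsp90 or Dnaj. They were 75 of the 21884 protein-coding genes in a table of 55486 genes, 30 with a heat shock symbol and 45 with a DNAJ symbol. The symbol rule itself used no measured value, but the members were chosen with earlier results of these data known.

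The tested animals were 7 FVB/N mice with metastatic disease derived from mammary tumours that were given cisplatin, a DNA-crosslinking drug, together with aPD1 and aCTLA4, antibodies that block 2 checkpoint receptors (CIS+IT). The other 4 FVB/N mice with metastatic disease received control antibody (Control Ab). Blood of both groups was taken 21 days into treatment. The sort kept live CD45+ cells that were CD3-, CD11b+ and F4/80+, low in Ly6g and high in side scatter, and full-length RNA was sequenced by Smart-seq2. The 3 agents were given together, so an effect of 1 of them cannot be told apart from that of the others.

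HSP70 proteins bind unfolded stretches of protein and release them in cycles of ATP hydrolysis. DNAJ proteins deliver clients to HSP70 and switch its ATPase on, HSP110 proteins exchange its nucleotide, and HSP90 takes over clients such as kinases and receptors at a late stage of folding. HSP60 and HSP10 fold proteins inside mitochondria, small heat shock proteins hold unfolding proteins in solution, and granulocytes that make secreted granule proteins depend on the folding machinery of the endoplasmic reticulum (ER). Heat shock factor 1 raises the cytosolic inducible members under stress, and the unfolded protein response raises the ER members.

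The letters that these transcription factors are known to read were looked up in RefSeq promoter windows of build GRCm38.p6, which run from 250 bases before to 50 bases after each transcription start. Of the 75 members, 60 had at least 1 window (77 windows). The heat shock element was written as GAANNTTCNNGAA and searched on both strands. It was found in 198 of all 32851 windows (0.603%) and in 6 member windows, which belong to Hsph1, Hspd1, Hspe1 and Dnajb6. The ER stress response element was written as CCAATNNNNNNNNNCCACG and searched on both strands. It was found in 39 of all windows (0.119%) and in 3 member windows, those of Hspa5, Hsp90b1 and Dnajc3. The ER element and the heat shock element overlapped in no member window. A match is a description of the letters, not a measured binding site. The 5 sequences are shown because the values below return to these genes. Hsph1 had the smallest edgeR p of any member, and Hspe1 shares its element with Hspd1. Hspa5, Hsp90b1 and Dnajc3 are the members whose windows matched the ER element as written. Inexact matches, sites outside the windows and members without a window were not searched. Capitals mark the element, each sequence reads 5′ to 3′ on the strand of its gene, and each ends at the transcription start except that of Hsph1, which runs 30 bases past it because its element lies there.
Hsph1 promoter, chr5:149636286-149636465, minus strand: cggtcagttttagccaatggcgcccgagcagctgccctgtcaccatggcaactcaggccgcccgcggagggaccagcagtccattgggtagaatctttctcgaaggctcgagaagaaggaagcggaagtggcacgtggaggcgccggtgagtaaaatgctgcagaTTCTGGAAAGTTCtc
Hspe1 promoter, chr1:55087998-55088147, plus strand: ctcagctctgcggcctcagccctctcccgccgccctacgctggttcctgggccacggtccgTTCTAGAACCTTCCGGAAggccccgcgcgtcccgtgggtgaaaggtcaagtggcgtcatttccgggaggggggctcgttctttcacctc
Hspa5 promoter, chr2:34771940-34772089, plus strand: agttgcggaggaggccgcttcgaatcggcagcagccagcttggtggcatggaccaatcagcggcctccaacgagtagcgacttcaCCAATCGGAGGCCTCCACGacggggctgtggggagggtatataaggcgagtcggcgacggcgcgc
Hsp90b1 promoter, chr10:86705445-86705694, minus strand: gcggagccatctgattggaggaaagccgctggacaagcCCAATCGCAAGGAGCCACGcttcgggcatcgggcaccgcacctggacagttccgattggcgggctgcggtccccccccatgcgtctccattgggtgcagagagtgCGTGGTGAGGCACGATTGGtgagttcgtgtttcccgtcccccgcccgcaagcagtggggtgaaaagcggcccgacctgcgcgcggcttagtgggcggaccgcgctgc
Dnajc3 promoter, chr14:118937782-118937931, plus strand: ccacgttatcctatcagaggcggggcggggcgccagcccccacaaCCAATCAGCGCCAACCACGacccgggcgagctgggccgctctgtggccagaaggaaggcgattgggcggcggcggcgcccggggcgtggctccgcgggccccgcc
The capitals in the Hspe1 promoter hold 2 overlapping matches, and the same bases lie in the window of Hspd1 on the other strand. Hspd1 and Hspe1 are a head-to-head pair on chromosome 1 whose annotated gene bodies overlap by 111 bases. In Hsp90b1 the window held 2 separate ER elements, in opposite orientations.

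Library totals were 5356118 to 8016658 counts in CIS+IT and 3733156 to 6721060 counts in Control Ab. Each library came from 1 mouse, and the p-values measure the spread between these mice. Control Ab 3 and Control Ab 4 stood apart, with 28.2% and 20.1% of their counts on haemoglobin genes against 0.165% to 4.42% in the other 9 libraries, and their detected genes numbered 10775 and 11263, below the 12639 to 15557 of the others. Eosinophil markers were detected for all 8 listed genes in the table. Their summed level was 3980 to 10307 counts per 1000000 of the library total (CPM) in CIS+IT and 4041 to 10910 CPM in Control Ab. The lowest sums were those of CIS+IT 3 (3980 CPM), Control Ab 3 (4041 CPM) and Control Ab 4 (4448 CPM), against 6198 to 10910 CPM in the others. Not every marker followed the sum, as Prg2 was highest in Control Ab 3, at 1531 CPM. Epx, the eosinophil peroxidase, was at 0 in CIS+IT 3. The sample identifiers begin with 19 in all CIS+IT and with 20 in all Control Ab libraries, so a batch marked by these digits cannot be told apart from the treatment. The letters that follow are VIS in CIS+IT 2 to CIS+IT 7 and KDV in CIS+IT 1 and all 4 Control Ab libraries.

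Of the 75 members, 66 had a count in at least 1 library, 44 had counts in all 11, and 9 had none. The 9 without a count were Hspa12a, Hspa12b, Hspb3, Hspb7, Hspb8, Dnajc5b, Dnajc5g, Dnajc6 and Dnajc22, several of which are known from muscle or nerve. All 3 HSP90, all 3 HSP110 and both chaperonin genes were detected in every library. Among small heat shock proteins none of 7 was detected in every library and 4 were detected at all. HSP70 genes were detected for 9 of 11, DNAJA genes for 4 of 4, DNAJB genes for 13 of 13 and DNAJC genes for 24 of 28. The detection limit matters here, since a count of 0 in a library allows up to 3 counts.

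A few members carried much of the family's RNA. Divided by exon length, and with counts scaled by the trimmed mean of M-values (TMM-scaled CPM), Hspa5 stood at 129 ± 42.4 and Hsp90ab1 at 129 ± 52.8 CPM per kilobase over the 11 libraries (SD). Hspa5 encodes BiP, the HSP70 of the ER, and Hsp90ab1 the constitutive cytosolic HSP90. Dnajc8, which encodes a protein associated with the spliceosome, followed at 99.8 ± 28.0 CPM per kilobase, Hspa8, the constitutive cytosolic HSP70, at 95.9 ± 36.9, and Hsp90b1, the HSP90 of the ER, at 88.3 ± 17.5. These 5 levels overlapped within their spread over libraries, and their order within single libraries was not tested. The next were Dnaja2 at 39.8 ± 12.6, Dnajb11 at 38.6 ± 10.04, Dnajc7 at 37.6 ± 7.67 and Dnajb1 at 31.5 ± 10.5 CPM per kilobase, and these too overlapped. Hspd1 stood at 22.5 ± 10.2 CPM per kilobase and Hspe1, its partner in the chaperonin, at 7.52 ± 4.19.

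**Figure D1:**
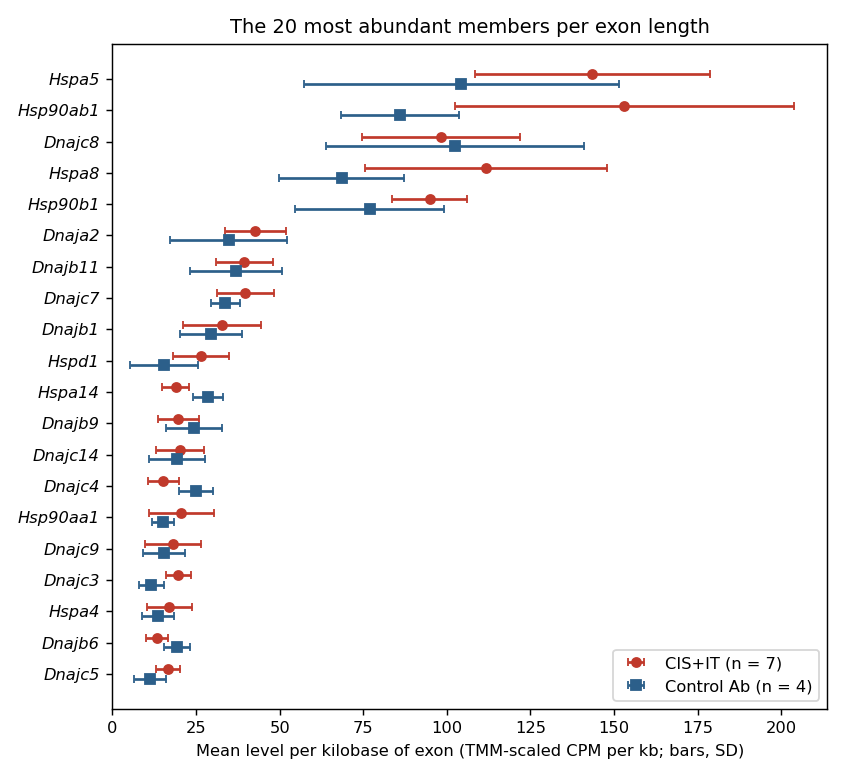
Mean level per kilobase of exon (horizontal axis, TMM-scaled CPM per kilobase) of the 20 most abundant members, with the SD over libraries as bars, for 7 CIS+IT libraries (red circles) and 4 Control Ab libraries (blue squares). Hspa5 (143 ± 35.2 in CIS+IT and 104 ± 47.1 in Control Ab) and Hsp90ab1 (153 ± 50.8 and 86.1 ± 17.7) lie at the top.

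Members took 0.367% to 0.609% of all counts in CIS+IT, with a mean of 0.471% ± 0.0835 (SD, n = 7), and 0.246% to 0.417% in Control Ab, with a mean of 0.331% ± 0.0898 (SD, n = 4). Outside haemoglobin genes the share was 0.373% to 0.630% in CIS+IT and 0.326% to 0.417% in Control Ab. The heat shock and DNAJ symbols were then summed separately. Summed over the 30 heat shock symbols, the level was 1903 to 3380 TMM-scaled CPM in CIS+IT (mean 2493 ± 479, n = 7) and 1644 to 2010 in Control Ab (mean 1757 ± 170, n = 4). Of the CIS+IT libraries only CIS+IT 1 lay below Control Ab 3, the highest control. Summed over the 45 DNAJ symbols, the level was 1887 ± 139 TMM-scaled CPM in CIS+IT and 1896 ± 240 in Control Ab, with wide overlap. These sums are descriptions without a test, since the members were chosen with results of these libraries known. In sorted cells measured in bulk, fewer cells of a type and less RNA per cell cannot be told apart.

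**Figure D2:**
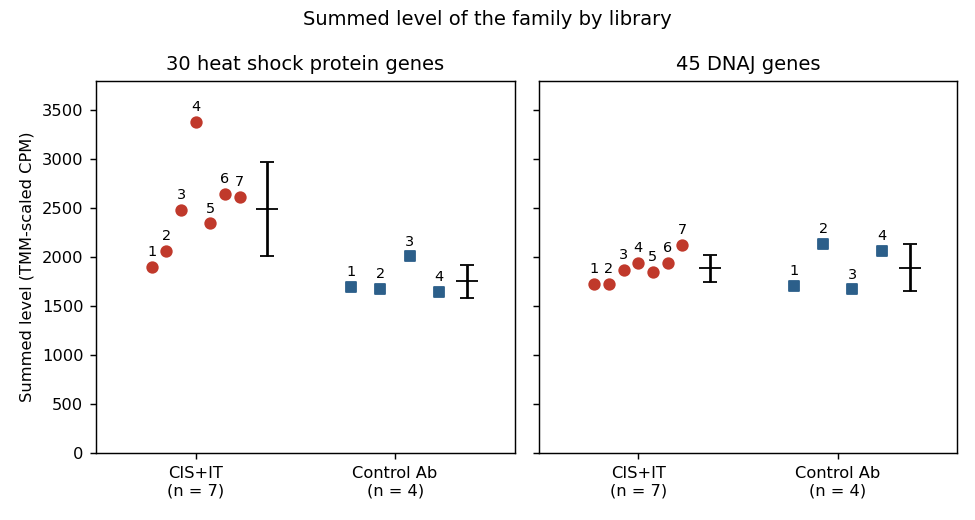
Summed level of the 30 heat shock protein genes (left) and the 45 DNAJ genes (right) in each library, in TMM-scaled CPM, with replicate numbers beside the points and mean ± SD in black. For heat shock genes 6 of 7 CIS+IT points lie above the highest Control Ab point of 2010, and for DNAJ genes the groups overlap.

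The comparison asked how the combined treatment altered gene expression in blood eosinophils relative to control antibody. Of the 75 members, 55 passed the filter on low counts and were tested with all 11389 such genes. Not tested were the 9 genes without counts and 11 with few counts, among them Hspa1a, Hspa1b, Hspa1l, Hspb2, Hspb9, Dnaja4, Dnajb3, Dnajb5, Dnajb7 and Dnajb8. No member was higher or lower by the edgeR quasi-likelihood test at an adjusted p of 0.05, where 0% of all tested genes were called in either direction and the lowest adjusted p of any gene was 0.355. At an unadjusted p under 0.05 in edgeR, 5 of 55 members (9.09%) were higher in CIS+IT, beside 3.7% of all tested genes, and 2 of 55 (3.64%) were lower, beside 3.13%. The 5 were Hsph1, Hsp90ab1, Dnajc3, Hspb1 and Hspa8, and the 2 were Hspa14 and Dnajc28. Hspb1 had 1 count in Control Ab, so it passed the filter through CIS+IT libraries alone. Its place among the 5 is therefore no support for a difference. DESeq2 called no member, while it called 0.325% of all genes higher and 0.0263% lower, and its lowest adjusted p of a member was 0.147 for Hsph1. No member had groups that did not overlap, a pattern seen higher in CIS+IT in 0.509% and lower in 0.43% of all tested genes. A fold change above 0 was found in 34 of 55 members (61.8%), beside 51.8% of all tested genes. These shares depended on 1 library and on a covariate. Without Control Ab 1, 27 of 56 members were above 0, beside 6372 of 11849 genes, and 4 members were higher at an unadjusted p under 0.05, beside 833 genes, and 4 lower, beside 510 genes. With the identifier letters as a covariate, chosen after seeing the data, 25 of 55 members were above 0, beside 5339 of 11389 genes, and 0 were higher or lower at that p.

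Counted by symbol, fold changes above 0 were more frequent among heat shock genes. Of 19 tested heat shock symbols, 16 had a log2 fold change above 0, beside 5900 of 11389 genes. The median of the 19 was 0.46, against 0.03 over all tested genes. Of 36 tested DNAJ symbols, 18 were above 0 and the median was -0.03, while without Control Ab 1 these were 11 of 36 and -0.18. The median of the heat shock symbols ran from 0.12 to 0.66 over all settings tried. The lowest came with the identifier letters as a covariate, where the contrast rests on CIS+IT 1. There 12 of 19 were above 0, beside 13 of 36 DNAJ symbols and 5339 of 11389 genes. With detected genes as a covariate 13 of 19 heat shock symbols were above 0, beside 6103 of 11389 genes. The median of the DNAJ symbols ran from -0.26, with the letters, to 0.07. By role, tested members above 0 were 3 of 3 HSP90, 3 of 3 HSP110, 5 of 6 HSP70 and 2 of 2 chaperonin genes. They were 2 of 2 small heat shock genes and 1 of 3 others with an Hspb symbol. Among DNAJ genes they were 2 of 3 DNAJA, 3 of 9 DNAJB and 13 of 24 DNAJC. With detected genes as a covariate these were 4 of 6 HSP70, 1 of 2 chaperonin and 1 of 2 small heat shock genes. HSP90 and HSP110 kept 3 of 3. Hspb1 and Hspb6 passed the filter mainly through CIS+IT libraries, so their direction is no support. Without CIS+IT 3 and CIS+IT 4 neither was tested, and 13 of 17 heat shock symbols were above 0, beside 5404 of 10725 genes. Without Control Ab 3 and Control Ab 4 the DNAJB count was 6 of 10. The list of heat-inducible members had 7 of 9 above 0 (median 0.64), the ER list 6 of 8 (median 0.26) and the mitochondrial list 6 of 8 (median 0.13, and 0.08 to 0.30 when 1 library was left out). The heat-inducible list includes Hspa8 and Hsp90ab1, described above as constitutive. Both had a log2 fold change above 0 and an unadjusted edgeR p under 0.05, so its median rests partly on constitutive genes. Hspb1 is also on the inducible list. The median of that list was 0.36 without CIS+IT 3 and CIS+IT 4, where Hspb1 was not tested, and 0.12 with the identifier letters. That of the ER list ran from 0.10 to 0.41 over all settings. None of these list members passed the test.

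**Figure D3:**
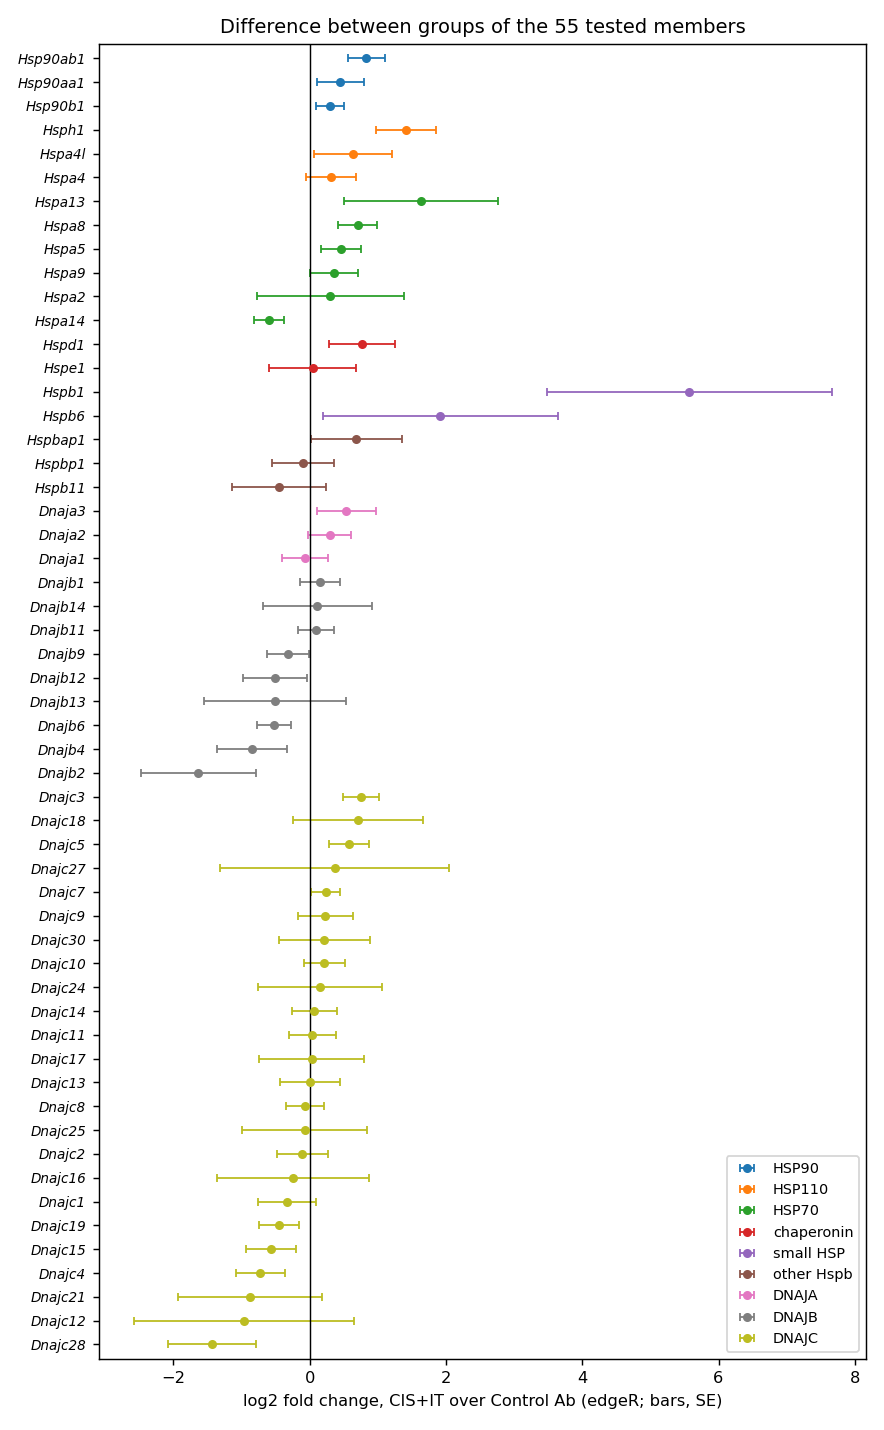
Log2 fold change of CIS+IT over Control Ab (horizontal axis) with its standard error for the 55 tested members, in rows ordered and coloured by role. The 16 of 19 heat shock symbols above 0 stand in the upper block, 6 of 9 DNAJB rows lie below 0 (4 of 10 without Control Ab 3 and Control Ab 4), and no member passed the edgeR test. Hspb1 and Hspb6, among the 16, passed the filter on low counts mainly through CIS+IT libraries.

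Among the HSP90 genes, Hsp90ab1 had the largest difference between the groups, and it did not pass the test. Its level in CIS+IT had a lowest value of 298, a median of 406 and a highest of 709 TMM-scaled CPM, and it was 229, 307, 298 and 198 TMM-scaled CPM in Control Ab 1 to 4. The highest libraries were CIS+IT 3 and CIS+IT 4, and 6 of 7 CIS+IT libraries lay above every Control Ab library. The log2 fold change was 0.83 ± 0.27 (SE; edgeR adjusted p = 0.626). Hsp90aa1, the inducible cytosolic HSP90, had 41.7, 70.1 and 139 TMM-scaled CPM as lowest, median and highest value in CIS+IT, against 58.7, 41.7, 64.9 and 71.6 in Control Ab. Again CIS+IT 3 and CIS+IT 4 were the highest, and of the other 5 CIS+IT libraries only CIS+IT 6, at 84.3, exceeded every control (log2 fold change 0.45 ± 0.35, edgeR adjusted p = 0.887). Hsp90b1, which folds integrins and Toll-like receptors in the ER, varied little in CIS+IT, at 382 ± 45.4 TMM-scaled CPM (SD, n = 7), against 310 ± 89.7 in Control Ab (SD, n = 4), with a log2 fold change of 0.30 ± 0.21 and 0.03 without Control Ab 3 and Control Ab 4.

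Summed B cell markers were highest in the same libraries, CIS+IT 3 and CIS+IT 4, as the cytosolic HSP90 genes. All 9 B cell markers were detected, with a summed level of 1412 to 6715 CPM in CIS+IT and 544 to 3304 CPM in Control Ab. The summed level was 5903 CPM in CIS+IT 3 and 6715 CPM in CIS+IT 4, where Ighm made up 3710 CPM of it. Not every marker followed the sum. Bank1 was highest in Control Ab 1, at 646 CPM, and Ighd in CIS+IT 5, at 116 CPM. The other markers were highest in CIS+IT 3 or CIS+IT 4. Pax5 was at 0 in CIS+IT 1 and Control Ab 3, and Cd79b at 0 in Control Ab 3. Without these CIS+IT libraries the log2 fold change of Hsp90ab1 was 0.57 and that of Hsp90aa1 was 0.02, in a fit chosen after seeing the data. For Hsph1 it was 1.34, for Hspa8 0.63 and for Dnajc3 0.72 in that fit. With the identifier letters as a covariate, also chosen after seeing the data, it was 0.21 for Hsp90ab1 and -0.20 for Hsp90aa1.

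Hsph1 had the smallest edgeR p of all members. It encodes an HSP110 protein that exchanges the nucleotide of HSP70 and is strongly heat-inducible in mouse cells. Its level was 28.0, 43.2 and 56.9 TMM-scaled CPM as lowest, median and highest value in CIS+IT, against 5.96, 30.8, 10.4 and 17.1 in Control Ab 1 to 4. Only CIS+IT 1 lay below the highest control, Control Ab 2, so 6 of 7 CIS+IT libraries exceeded the control range. The means were 43.0 ± 10.3 in CIS+IT (SD, n = 7) and 16.1 ± 10.9 in Control Ab (SD, n = 4), with a log2 fold change of 1.41 ± 0.44 (SE; edgeR adjusted p = 0.626). It was 1.27 without Control Ab 3 and Control Ab 4, and 0.80 with the identifier letters as a covariate. The other members whose windows matched the heat shock element, Hspd1, Hspe1 and Dnajb6, had log2 fold changes of 0.77, 0.04 and -0.52. The other HSP110 genes did not pass the test either. Hspa4 stood at 94.1 ± 36.9 TMM-scaled CPM in CIS+IT and 75.5 ± 26.3 in Control Ab (log2 fold change 0.32 ± 0.37), and Hspa4l at 35.5 ± 18.1 and 22.8 ± 19.5 (0.64 ± 0.58). The value of Hspa4l was 1.33 without Control Ab 1 and 0.30 without Control Ab 2.

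The abundant HSP70 genes had higher means in CIS+IT, with 1 exception, and none passed the test. Hspa8, which also strips clathrin from vesicles, had 289, 490 and 700 TMM-scaled CPM as lowest, median and highest value in CIS+IT, against 182, 303, 370 and 324 in Control Ab 1 to 4. In 5 of 7 CIS+IT libraries it exceeded every control, and CIS+IT 1 and CIS+IT 2 did not. Its log2 fold change was 0.70 ± 0.29 (SE; edgeR adjusted p = 0.663), 1.03 without Control Ab 3 and Control Ab 4, and 0.12 with the identifier letters as a covariate. Hspa5 had 475, 563 and 914 TMM-scaled CPM in CIS+IT, against 383, 219, 698 and 464 in Control Ab. Control Ab 3 was the second highest of all 11 libraries, so the groups overlapped, and the log2 fold change was 0.46 ± 0.29 (edgeR adjusted p = 0.828), and it was 0.24 without Control Ab 2 and 0.80 without Control Ab 3. Without Control Ab 3 and Control Ab 4 that of Hspa5 was 1.04, with an edgeR adjusted p of 0.365. Hspa9, the mitochondrial HSP70, stood at 63.3 ± 24.1 TMM-scaled CPM in CIS+IT and 49.2 ± 13.1 in Control Ab.

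Hspa14 was the exception. It encodes an atypical HSP70 that sits on ribosomes with the DNAJ protein of Dnajc2. Its level was 56.2, 80.9 and 99.7 TMM-scaled CPM as lowest, median and highest value in CIS+IT, against 113, 120, 93.8 and 137 in Control Ab 1 to 4. In 6 of 7 CIS+IT libraries it lay below every control, and only CIS+IT 7 reached into the control range. The log2 fold change was -0.60 ± 0.22 (SE; edgeR adjusted p = 0.626), against -0.57 without Control Ab 3 and Control Ab 4 and -0.51 with the identifier letters as a covariate. Dnajc2 did not differ in this way, at 37.7 ± 14.2 TMM-scaled CPM in CIS+IT and 40.5 ± 13.9 in Control Ab (log2 fold change -0.10 ± 0.37).

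Low members of the HSP70 family varied by library. Hspa13, an HSP70-like protein of microsomes, was detected in 7 of 7 CIS+IT libraries, at 4.74 to 24.4 TMM-scaled CPM, and in Control Ab 1 and Control Ab 3 at 9.39 and 8.82, with 0 counts in Control Ab 2 and Control Ab 4 (log2 fold change 1.64 ± 1.13, edgeR adjusted p = 0.857). Hspa2, known from the testis, was at 12.6 ± 9.34 TMM-scaled CPM in CIS+IT and 10.2 ± 7.00 in Control Ab. The classical inducible pair Hspa1a and Hspa1b, near-identical copies on chromosome 17 whose reads may be shared, was close to the detection limit. Together they had 16, 0, 41, 29, 7, 21 and 15 counts in CIS+IT 1 to 7 and 0, 0, 9 and 0 counts in Control Ab 1 to 4. The 129 counts in CIS+IT against 9 in Control Ab gave a ratio of 5.81 per scaled library size (95% exact interval 2.97 to 12.98, counting error only), and both groups held a library at 0. Hspa1l, their neighbour, had 17 counts in 1 CIS+IT library and 3 counts in 1 Control Ab library.

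**Figure D4:**
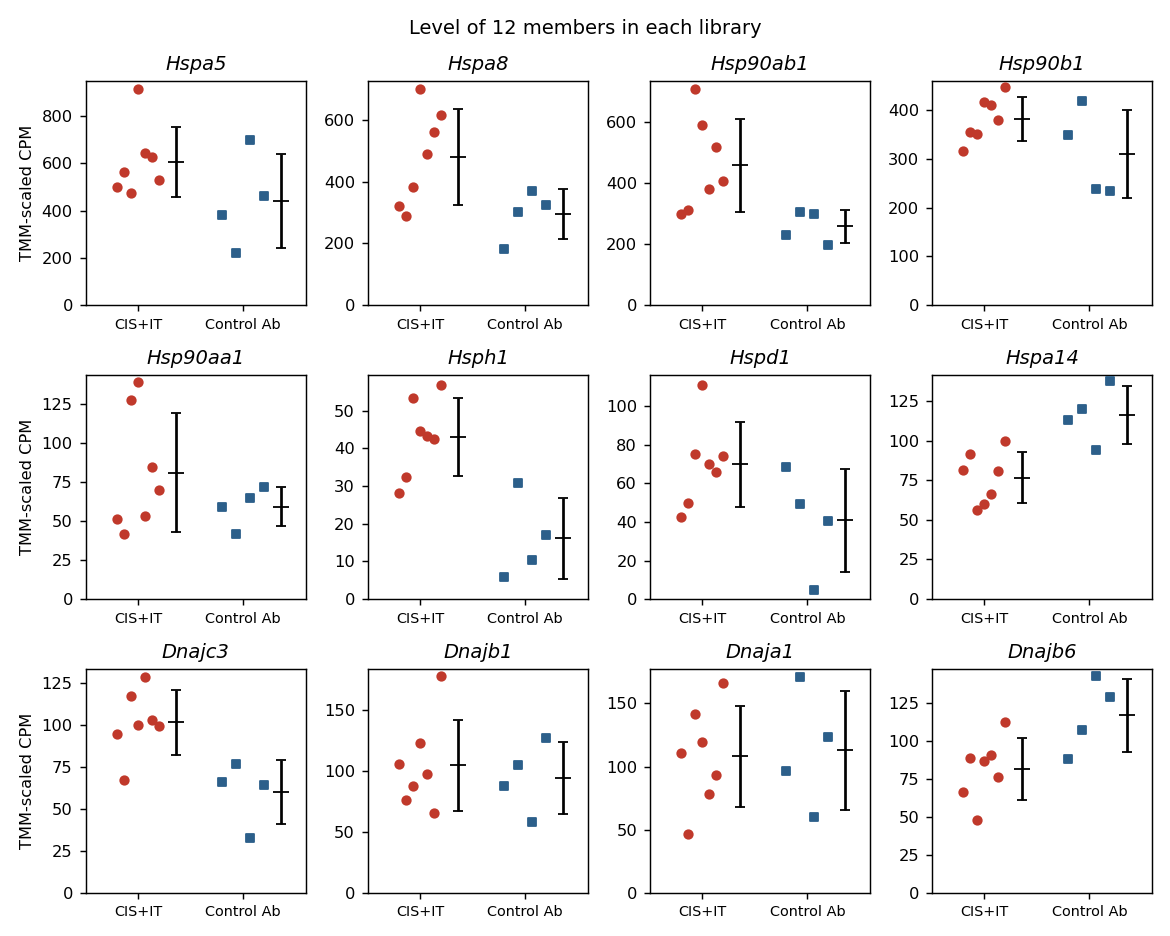
Level of 12 members in each library (vertical axis, TMM-scaled CPM, from 0), with 7 CIS+IT libraries as red circles left, 4 Control Ab libraries as blue squares right, and mean ± SD in black. Hsph1, Hsp90ab1 and Dnajc3 have 6 of 7 CIS+IT points above the control range and Hspa14 has 6 of 7 below it, while Dnajb1 and Dnaja1 overlap fully or nearly so.

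Neither gene of the chaperonin pair passed the test. Hspd1, which encodes HSP60, had 42.7, 70.1 and 111 TMM-scaled CPM as lowest, median and highest value in CIS+IT, against 68.6, 49.5, 4.81 and 40.4 in Control Ab 1 to 4. The low mean of the controls came with Control Ab 3, and the log2 fold change of 0.77 ± 0.49 (edgeR adjusted p = 0.831) was 0.28 without Control Ab 3 and Control Ab 4. Hspe1, which encodes HSP10, stood at 11.2 ± 6.93 TMM-scaled CPM in CIS+IT and 10.9 ± 5.57 in Control Ab, with a log2 fold change of 0.04 ± 0.64. In CIS+IT both were lowest in CIS+IT 1 and CIS+IT 2. In Control Ab 3, where Hspd1 was lowest, Hspe1 had its highest control value of 18.4. The exons of the pair overlap and the strand setting of the counting is not given, so reads in the overlap are uncertain.

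Among small heat shock proteins, Hspb1 had the largest fitted difference and few counts. It encodes HSP25, the mouse form of HSP27, which binds actin and unfolding proteins. It was detected in CIS+IT 2, 3, 4, 6 and 7 at 1.65 to 10.7 TMM-scaled CPM, was at 0 in CIS+IT 1 and CIS+IT 5, and had 1 count in Control Ab 4 and none in the other controls. The 206 counts in CIS+IT against 1 in Control Ab gave a ratio of 83.5 (95% exact interval 14.8 to 3312, counting error only), and the edgeR adjusted p was 0.626 for Hspb1. The library highest in Hspb1 was CIS+IT 3, followed by CIS+IT 4. With the identifier letters as a covariate, where the contrast rests on CIS+IT 1 with its count of 0, the fitted log2 fold change of Hspb1 was -2.15. Hspb6, known from muscle, ran from 0 to 11.5 TMM-scaled CPM in CIS+IT and was at 4.53 in Control Ab 2 and 0 in the other 3 controls. Its exons overlap those of Lin37 on the other strand, so its counts are uncertain. Hspb9 had 3 counts in CIS+IT 6 and 10 in Control Ab 1, and Hspb2 had 2 counts in 1 library. The 3 genes with an Hspb symbol that are not small heat shock proteins, Hspb11, Hspbap1 and Hspbp1, had log2 fold changes of -0.45, 0.68 and -0.09. That of Hspbap1 was 0.03 without Control Ab 3 and Control Ab 4.

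DNAJA proteins are the closest partners of cytosolic and mitochondrial HSP70 in refolding. Dnaja2 was the most abundant of them per length and stood at 127 ± 27.3 TMM-scaled CPM in CIS+IT (SD, n = 7) and 103 ± 52.0 in Control Ab (SD, n = 4), with a log2 fold change of 0.30 ± 0.32. This was 0.06 without Control Ab 3, the lowest library at 39.7 TMM-scaled CPM, and 0.63 without Control Ab 2, the highest. Dnaja1, an inducible partner of HSP70, had 108 ± 40.0 and 113 ± 46.9 TMM-scaled CPM (-0.06 ± 0.34). Dnaja3, the mitochondrial form, had 27.0 ± 11.8 and 18.5 ± 4.27 TMM-scaled CPM (0.54 ± 0.43). Dnaja4 was near the detection limit, with 17 counts in 2 CIS+IT libraries and 10 counts in 2 Control Ab libraries. Exons of Dnaja1, Dnaja3 and Dnaja4 overlap those of Smu1, Coro7 and Wdr61 on the other strand.

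Dnajb1, the HSP40 that is induced together with HSP70 under heat, did not differ as Hsph1 did. It had 65.5, 97.1 and 178 TMM-scaled CPM as lowest, median and highest value in CIS+IT, against 87.6, 105, 57.7 and 127 in Control Ab, with a log2 fold change of 0.15 ± 0.30 (edgeR adjusted p = 0.959). CIS+IT 7 had the most of both Hsph1 and Dnajb1, while CIS+IT 3, with the second most Hsph1 at 53.3 TMM-scaled CPM, had 87.4 of Dnajb1. Dnajb6, a suppressor of protein aggregation, had 47.8, 86.6 and 112 TMM-scaled CPM in CIS+IT, against 88.3, 107, 143 and 129 in Control Ab. Its 2 highest libraries were Control Ab 3 and Control Ab 4, and the log2 fold change of -0.52 ± 0.25 (edgeR adjusted p = 0.728) was -0.23 without them.

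Dnajb2 was highest in Control Ab 3 and Control Ab 4, the libraries with most haemoglobin, and Dnajb4 in Control Ab 4. Dnajb2, which links HSP70 to the proteasome through ubiquitin-binding motifs, was at 0.118 to 44.9 TMM-scaled CPM in CIS+IT (median 25.6), against 16.2, 18.0, 161 and 73.1 in Control Ab 1 to 4. The log2 fold change was -1.63 ± 0.84 (edgeR adjusted p = 0.751) and 0.37 without Control Ab 3 and Control Ab 4. Dnajb4 was at 10.6 to 20.6 TMM-scaled CPM in CIS+IT, against 24.5, 4.95, 24.0 and 56.0 in Control Ab, with a log2 fold change of -0.84 ± 0.52 and 0.07 without those controls. All 9 erythroid markers were detected, with a summed level of 12482 to 47650 CPM in CIS+IT and 1724 to 296591 CPM in Control Ab. Control Ab 3 held 296591 CPM and Control Ab 4 held 211908 CPM of it, and the 8 platelet markers were also highest there, at 7292 and 6243 CPM against 277 to 3272 CPM elsewhere. Slc4a1 was at 0 in Control Ab 2. The other DNAJB genes were Dnajb12, Dnajb13 and Dnajb14, with log2 fold changes of -0.51, -0.51 and 0.11 (-0.0054, -0.45 and 0.74 without Control Ab 3 and Control Ab 4), and Dnajb3, Dnajb5, Dnajb7 and Dnajb8, which had at most 38 counts in either group.

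In the ER the picture was mixed. Dnajc3, which encodes P58IPK, an ER chaperone partner of BiP that also restrains the stress kinase PERK, had 67.3, 99.9 and 129 TMM-scaled CPM as lowest, median and highest value in CIS+IT, against 65.7, 77.0, 32.9 and 64.0 in Control Ab. In 6 of 7 CIS+IT libraries it exceeded every control, and CIS+IT 2 lay within the control range. Its log2 fold change was 0.76 ± 0.27 (SE; edgeR adjusted p = 0.626), 0.55 without Control Ab 3 and Control Ab 4, and 0.66 with the identifier letters as a covariate. It has the ER element in its promoter, as do Hspa5 and Hsp90b1, whose log2 fold changes were 0.46 and 0.30. Without Control Ab 3 and Control Ab 4 these were 1.04 and 0.03, beside the 0.55 of Dnajc3.

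Of the other ER members, Hspa13, described above, had a log2 fold change of 1.64 ± 1.13 and exceeded every control in 5 of 7 CIS+IT libraries. The remaining 4 had values between -0.33 and 0.21. Dnajb11, the ER partner that brings unfolded proteins to BiP, stood at 128 ± 27.3 TMM-scaled CPM in CIS+IT and 120 ± 44.4 in Control Ab (log2 fold change 0.09 ± 0.27). Dnajb9, an ER member raised by the unfolded protein response, was at 50.04 ± 15.6 in CIS+IT and 62.2 ± 21.1 in Control Ab (-0.32 ± 0.30). Dnajc10, a disulfide reductase of ER-associated degradation, was at 69.7 ± 16.7 and 60.3 ± 23.9 TMM-scaled CPM (0.21 ± 0.30), and Dnajc1, a membrane-bound ER member, at 29.0 ± 14.05 and 36.4 ± 15.5 (-0.33 ± 0.42). Without Control Ab 3 and Control Ab 4 that of Dnajc10 was 0.71 and that of Dnajc1 was -0.73. Each of these 4 overlapped widely between groups, and 0 of the 8 ER members passed the edgeR test, where Dnajc3 was the only one with an unadjusted p under 0.05.

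**Figure D5:**
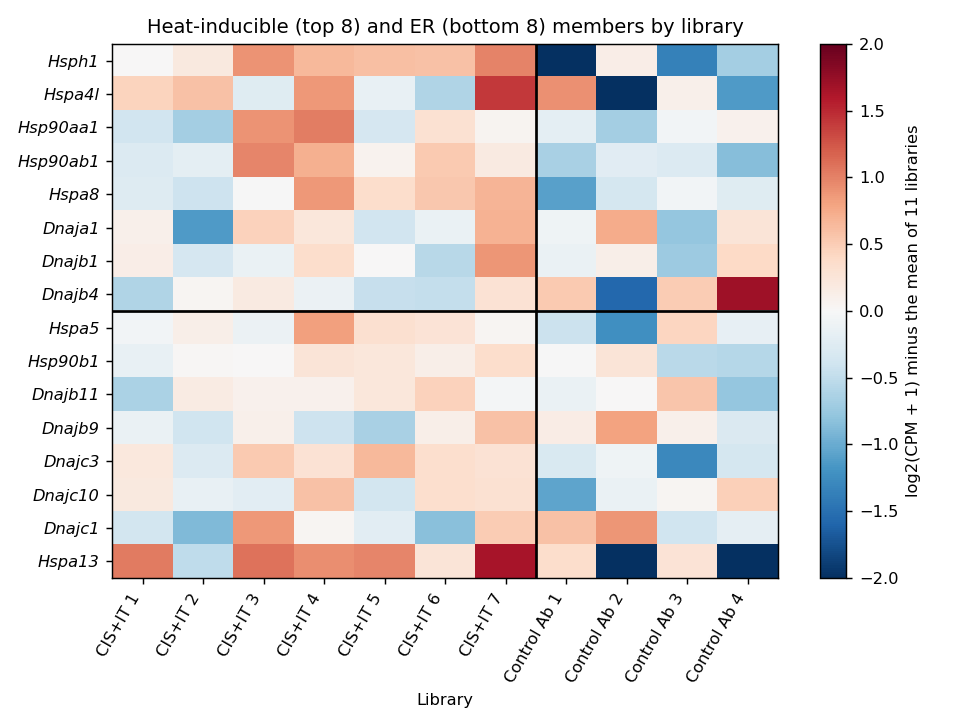
Level of 8 members of the heat-inducible list (top) and 8 ER members (bottom) in each library, as log2(TMM-scaled CPM + 1) minus the mean over the 11 libraries, with values beyond 2 in either direction drawn in the end colours. The upper 8 include Hspa8 and Hsp90ab1, described in the text as constitutive. Hsph1 reaches 1.00 in CIS+IT 7 and -2.06 in Control Ab 1, Hspa13 is at -3.03 in Control Ab 2 and Control Ab 4, and Hspa4l ranges from -2.21 in Control Ab 2 to 1.41 in CIS+IT 7.

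DNAJC genes have the J domain and otherwise varied structures and tasks. The 3 most abundant by count were Dnajc8 at 251 ± 60.3 TMM-scaled CPM in CIS+IT and 262 ± 98.5 in Control Ab, Dnajc7, which binds HSP70 and HSP90 at once, at 193 ± 41.7 and 164 ± 21.2, and Dnajc14 at 132 ± 46.4 and 126 ± 54.6. Their log2 fold changes were -0.06 ± 0.28, 0.24 ± 0.21 and 0.07 ± 0.33. Dnajc5, which encodes the cysteine string protein of exocytosis, was at 116 ± 24.9 TMM-scaled CPM in CIS+IT and 77.9 ± 33.3 in Control Ab (0.58 ± 0.29, edgeR adjusted p = 0.749). In 4 of 7 CIS+IT libraries Dnajc5 exceeded every control. Exons of Dnajc7 overlap those of Cnp and Nkiras2, those of Dnajc14 overlap Sarnp and Ormdl2, and those of Dnajc1 overlap Mllt10.

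At the lower end, Dnajc28 had 1.17, 7.36 and 17.1 TMM-scaled CPM as lowest, median and highest value in CIS+IT, against 14.5, 20.1, 12.8 and 47.6 in Control Ab. Its highest library was Control Ab 4, and 5 of 7 CIS+IT libraries lay below every control (log2 fold change -1.43 ± 0.65, edgeR adjusted p = 0.719; -0.95 without Control Ab 3 and Control Ab 4). Dnajc4 had 11.1, 17.5 and 27.8 TMM-scaled CPM in CIS+IT, against 30.7, 39.9, 25.2 and 28.4 in Control Ab, and lay below every control in 6 of 7 CIS+IT libraries (-0.72 ± 0.36, edgeR adjusted p = 0.738). Neither gene passed the test. Dnajc15 and Dnajc19, linked to the import motor of the mitochondrial inner membrane, had log2 fold changes of -0.57 ± 0.37 and -0.45 ± 0.30. The other 12 tested DNAJC genes had fold changes between -0.96 (Dnajc12) and 0.71 (Dnajc18), with standard errors of 0.34 to 1.68.

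Whether the inducible pair Hspa1a and Hspa1b varied with 4 other members was tested. None of the 4 relations passed over all 11 libraries, although leaving out 1 library moved some past the threshold. The partners were the inducible Hsph1 and Dnajb1, the constitutive Hspa8 and the ER member Hspa5. Over the 11 libraries the log2 level of Hspa1a plus Hspa1b (pseudocount 1) was compared with these members by Pearson's r with a two-sided permutation test. Both groups were pooled without a term for group, so a difference between the groups enters these values. With Hspa8 r was 0.64 (permutation p = 0.0360, adjusted p = 0.113 over the 4 relations; Spearman rho 0.67, permutation p = 0.0308, adjusted p = 0.123), with Hspa5 0.57 (permutation p = 0.0563, adjusted p = 0.113; rho 0.54, adjusted p = 0.188), with Hsph1 0.43 (permutation p = 0.194, adjusted p = 0.259; rho 0.44, adjusted p = 0.228) and with Dnajb1 -0.17 (permutation p = 0.628, adjusted p = 0.628; rho -0.32, adjusted p = 0.332). Of the libraries, 4 were tied at 0. Without the 2 libraries farthest from the median, which were 2 of those tied, r was 0.62, 0.41, 0.43 and -0.01 in the same order. Within the 7 CIS+IT libraries r was 0.45 with Hspa8, 0.03 with Hspa5, 0.53 with Hsph1 and 0.09 with Dnajb1, with exact permutation adjusted p of 0.621 or more, and the 4 Control Ab libraries were too few.

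Co-chaperones and heat shock factors outside the family were read from a list of 43 genes in the table, 38 of them tested. None was higher or lower at an adjusted p of 0.05 by edgeR, where 0% of all tested genes were called in either direction. DESeq2 called none either, beside 0.325% of all genes higher and 0.0263% lower. A fold change above 0 was found in 24 of 38 (63.2%), beside 51.8% of all tested genes. The median was 0.12, against 0.03 over all tested genes. At an unadjusted p under 0.05 in edgeR, 0 of 38 were lower, beside 3.13% of all tested genes. At that p 1 of 38 (2.63%) was higher, beside 3.7%. The 1 gene was Chordc1, an HSP90-binding protein, at 64.6, 80.4 and 114 TMM-scaled CPM as lowest, median and highest value in CIS+IT, against 69.1, 73.2, 55.7 and 44.7 in Control Ab (log2 fold change 0.55 ± 0.25, edgeR adjusted p = 0.713). Hsbp1, which binds heat shock factor 1, was at 188 ± 34.1 TMM-scaled CPM in CIS+IT and 248 ± 48.7 in Control Ab (-0.40 ± 0.21, edgeR adjusted p = 0.757). St13, which holds HSP70 in its substrate-bound state, was at 178 ± 19.0 and 146 ± 62.4 TMM-scaled CPM. Subunits of the cytosolic chaperonin had log2 fold changes of 0.54 ± 0.30 for Cct3, 0.09 ± 0.21 for Cct5, 0.10 ± 0.18 for Cct7 and 0.04 ± 0.26 for Cct8. Other tested subunits ran from -0.33 ± 0.35 for Tcp1, which lay below every control in 6 of 7 CIS+IT libraries, to 0.27 ± 0.22 for Cct4. Of the heat shock factors, Hsf1 had a log2 fold change of -0.36 ± 0.32, which was 0.04 without Control Ab 3 and Control Ab 4, while Hsf2 was at 9.12 ± 3.10 TMM-scaled CPM in CIS+IT and 4.13 ± 2.83 in Control Ab, with 4 of 7 CIS+IT libraries above every control (edgeR adjusted p = 0.835).

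Markers of other blood cells were present in all libraries, and apart from the values given above their part in these levels was not tested. The 12 monocyte markers summed to 2798 to 19270 CPM in CIS+IT and 1259 to 13200 CPM in Control Ab, with C1qa at 0 in Control Ab 1. The 8 neutrophil markers summed to 5431 to 13427 CPM in CIS+IT and 5846 to 12079 CPM in Control Ab, with Ly6g at 0 in 8 libraries. Retnlg made up most of that sum (13380 of 13427 CPM in CIS+IT 7), while S100a8 was at 15.5 CPM in CIS+IT 7 and highest in Control Ab 3, at 986 CPM. The 8 T cell markers summed to 23.8 to 75.0 CPM in CIS+IT and 17.1 to 31.1 CPM in Control Ab. Cd3e was at 0 in all 4 Control Ab libraries and in CIS+IT 5 and CIS+IT 7, and at most 2.81 CPM in the others. Cd3d and Cd3g were detected in all 11 libraries. Immediate early genes, which handling of cells can raise together with heat shock genes, summed to 3166 to 9040 CPM in CIS+IT and 2018 to 7535 CPM in Control Ab. Their sum was highest in CIS+IT 7, which also had the most Hsph1 and Dnajb1. Dusp1 made up most of the sum there, with 6840 of 9040 CPM. In that library Fos was at its highest of all libraries, at 401 CPM, and Junb at its lowest, at 565 CPM. CIS+IT 3, with the second most Hsph1, had the lowest sum in CIS+IT, and Control Ab 2, at 7535 CPM, had the second highest of all libraries.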

How the data were processed

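RNA of eosinophils sorted from blood was sequenced after Smart-seq2 preparation in 11 libraries, 1 per mouse. The authors deposited a single table of raw read counts, 1 row per Ensembl gene. The submitters' processing notes name the build GRCm38 and the tools SAMtools 1.15.1, bcl2fastq 2.20.0.422 and HISAT2 2.10. How reads were counted, with which strand setting and which annotation release, is not stated in those notes or the labels. Reads of overlapping genes and gene copies are therefore uncertain, and 11 of 55 tested members share exon bases with a gene of 1000 or more counts. 16 Hsp or Dnaj pseudogenes in the table held 136 counts in all. The 1 row without a gene held 0 counts. No 2 libraries were duplicates (chi-square per gene 55.2 or more).

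The treatment label gave the groups. In R 4.3.3, edgeR 4.0.16 compared them by its quasi-likelihood F test (TMM scaling, robust dispersions, low counts removed by filterByExpr, threshold 0.05 after Benjamini-Hochberg adjustment over 11389 genes) with group as the only term, and the test was checked on simulated counts. Fold changes are CIS+IT over Control Ab. Marker sums are CPM of the library total, and other levels are TMM-scaled CPM, divided for comparisons between genes by the exon length of GENCODE M21. Totals of 3733156 to 8016658 counts set the precision, and intervals cover counting error only, leaving out the spread between mice. Reads had no molecular identifiers, so a molecule may be counted more than once and the intervals may be too narrow. Promoters are RefSeq sequences of GRCm38.p6. Correlations used 100000 permutations, or all 5040 within CIS+IT, in scipy 1.17.1 with Python 3.11.15.

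The members and lists were chosen with earlier results of these data known. Named genes are, by rule, the 3 most abundant members of each role, all detected inducible and ER members, the 10 members with the smallest p at 10 CPM or more in a group, and of the co-chaperones the 5 most abundant and the 3 with the smallest p. Other members, Hsf1, Hsf2, Tcp1 and Cct4 were named after their values were seen. Alternatives were DESeq2 1.42.0 and its size factors, upper-quartile scaling, limma-voom 3.58.1, stricter and no filters, a block on the replicate number, a covariate for detected genes, a threshold of 0.1, leaving out each library, and leaving out Control Ab 3 and 4. Chosen after seeing the data were the identifier letters as a covariate and leaving out CIS+IT 3 and 4. The values of 1 untested member and of some marker genes are not reported here.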

Additional observations from a re-analysis of the deposited data

Results flagged for a closer look

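In 8 of the 86 groups of single genes looked at, 1 library lay far from the others of its group by Dixon's criterion, which chance alone meets in about 1 in 20 groups. The only abundant gene among them was Hspa5, at 914 TMM-scaled CPM in CIS+IT 4, against 475 to 643 in the other 6 CIS+IT libraries. CIS+IT 4 was also the library with the highest Hspa8 and Hsp90aa1.

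The other 7 cases rest on few counts. Hspa1a at 2.00 and Hspa1b at 1.603 TMM-scaled CPM in Control Ab 3 stood against 0 in the other 3 controls, and Hspb1 at 0.364 in Control Ab 4 and Hspb6 at 4.53 in Control Ab 2 did likewise. Hspb9 was at 0.502 TMM-scaled CPM in CIS+IT 6 and at 1.27 in Control Ab 1, and at 0 in all other libraries. Dnaja4 was at 2.36 TMM-scaled CPM in CIS+IT 3, against 0.137 or less in the other CIS+IT libraries.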

How the results depend on the processing

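No member and no co-chaperone was called under any of the 23 settings tried beside the reported one, whose lowest member adjusted p ran from 0.147 (DESeq2) to 1. Over all tested genes DESeq2 called 37 higher and 3 lower, and every other setting called 0. The cause was not tested. Of 39 named genes with a fold change, 22 kept their direction in every setting that tested them and 17 did not.

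With the identifier letters as a covariate, where the contrast rests on CIS+IT 1, the log2 fold change was -0.21 for Cct3, -0.38 for Cct5, -0.13 for Cct8, -0.24 for Dnaja3, -0.64 for Dnajb11, -0.0055 for Dnajc7, -0.20 for Hsp90aa1, -2.15 for Hspb1 and -1.33 for Hspe1, all reversed. Without Control Ab 3 and 4 together it reversed to 0.37 for Dnajb2, 0.069 for Dnajb4, -0.34 for Cct8 and -0.072 for Dnajc14. Without CIS+IT 3 and 4 together it reversed to -0.021 for Cct8, 0.0066 for Dnajc8 and -0.35 for Hspe1. With detected genes as a covariate it was -0.19 for Cct8, -0.88 for Hspb6 and -0.072 for Hspe1, and with limma-voom -0.056 for Cct8 and -0.00084 for Dnajc14.

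Leaving out 1 library at a time, these genes crossed 0: Cct5 (-0.012 to 0.24), Cct8 (-0.10 to 0.25), Dnaja1 (-0.24 to 0.22), Dnajb1 (-0.031 to 0.34), Dnajb11 (-0.075 to 0.37), Dnajc8 (-0.27 to 0.091), Dnajc10 (-0.0063 to 0.48), Dnajc14 (-0.11 to 0.33) and Hspe1 (-0.26 to 0.45). The correlation of Hspa1a plus Hspa1b ran from 0.557 to 0.736 with Hspa8, from 0.475 to 0.701 with Hspa5 and from 0.243 to 0.665 with Hsph1. The highest values with Hspa8 and Hspa5 came without CIS+IT 3, where the permutation adjusted p was 0.0358 for each. Without Control Ab 3 the permutation adjusted p of Spearman's rho was 0.0445 for both Hsph1 and Hspa8, and without CIS+IT 3 it was 0.0401 for Hspa8 and Hspa5. With Dnajb1 it reversed to 0.0927 within CIS+IT, 0.0118 on CPM of the library total and 0.108 without Control Ab 3 and 4.

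With the replicate number as a block, 0 genes were called, and the fold changes of Dnajc14 (-0.17) and Hspe1 (-0.075) reversed. Samples of the same number did not deviate together (correlations -0.12 to 0.021), none correlated best with its own number, and the samples share only a number.

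With 4 controls, 2 of them rich in haemoglobin, and a biological coefficient of variation of 0.828, no difference of the size seen in single members was called by edgeR after adjustment. Members near the detection limit, such as Hspa1a, Hspa1b and Hspb1, rest on counting intervals that leave out the spread between mice.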
